A study of Mus musculus with 32 samples.

Results

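Interleukins and their receptors were described across the 3 cell types and 3 time points of a mouse model of islet β cell loss and recovery. Members were the genes whose symbol starts with Il and a digit and whose score reached 20 in at least 1 of the 32 samples. This rule kept 68 of 85 such symbols among the 22850 genes measured. The score is the deposited expression value, which the authors had scaled between libraries and rounded, so that 1 is the lowest. Of the 68 genes, 26 encode ligands, 36 receptor chains, 2 decoy receptors (Il1r2 and Il13ra2), 2 soluble binding proteins (Il18bp and Il22ra2), 1 a receptor antagonist (Il1rn) and 1 an enzyme (Il4i1). Just inside the threshold were Il13ra2 with a highest score of 39 and Il1f10 with 42, and just outside were Il21 with 15 and Il28b with 14. The other 15 symbols that were not kept had highest scores of 1 to 10 and included Il12a, Il17a, Il3 and Il23r.

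All mice were adult and carried MIP-GFP, RIP-rtTA and TetO-VEGF-A, the No Dox controls included. In these βVEGF-A mice the rat insulin promoter drives the rtTA activator in β cells, so that doxycycline (Dox) turns on human VEGF-A in those cells, and islet endothelial cells (ECs) and macrophages (MΦs) are exposed to it as neighbours. Islet cells were sorted as GFP+ β cells, CD31+ ECs and CD11b+ MΦs before treatment (No Dox), after 1 week of Dox (1wk Dox) and 1 week after its withdrawal (1wk WD), and RNA was sequenced after amplification. There were 4, 5 and 3 β cell samples, 4, 1 and 5 EC samples, and 4, 2 and 4 MΦ samples, in the order No Dox, 1wk Dox, 1wk WD. A sample was a pool of islets of more than 1 mouse, so the spread between samples is not that between single animals. The CD11b gate takes in other myeloid cells and some lymphoid cells besides MΦs. Mice given Dox without the VEGF-A transgene were not analysed here, so an effect of Dox itself and one of VEGF-A cannot be told apart.

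Summed scores ran from 23465985 to 53441769 per sample with a median of 32988124, and read depth is unknown because the values are not counts. Each cell type carried its own markers. The 9 β cell markers summed to 513179 to 10933748 in β cells and at most 47740 elsewhere, the 9 endothelial markers to 412593 to 703228 in ECs and at most 62139 elsewhere, and the 9 MΦ markers to 271690 to 451840 in MΦs and at most 7583 elsewhere. Other cells were also present in the sorts. In β cells, No Dox replicates 1 and 2 stood apart with summed pericyte and stromal markers of 992 and 1118, and the log2 differences from No Dox β cells named below are also given without them. Summed acinar markers reached 12251564 in β cells and 11332109 in MΦs at No Dox, and summed pericyte and stromal markers ran from 992 to 491402 in β cells. In the table of scores 28 libraries have numbers from 94546 to 94573 and 4 have numbers from 96977 to 96980. The second run of numbers holds both 1wk Dox MΦ samples, the only 1wk Dox EC sample and β cell replicate 3 at 1wk WD, so in MΦs and ECs the run and 1wk Dox cannot be told apart.

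Interleukins are small secreted proteins that carry signals among leukocytes and from leukocytes to epithelium, endothelium and stroma. Most act through receptors built from a ligand-binding chain and a shared signalling chain, and soluble antagonists, decoy receptors and binding proteins hold them in check. IL-1 signals through Myd88 and NF-κB, whereas most receptors of the IL-2, IL-6, IL-10 and IL-12 families signal through JAK kinases and STAT factors. In islets, IL-1 made by MΦs is known as a signal to which β cells respond, since these cells carry its receptor.

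Before treatment, of the 68 members, 39 had their highest No Dox mean score in MΦs, 17 in β cells and 11 in ECs, and 1 (Il22) was at the lowest score in every No Dox sample. The counts in MΦs, β cells and ECs were 57.4%, 25% and 16.2% of the members, beside 31.5%, 40.4% and 27.2% of the 17958 genes of the table that reached the same score. By the mean of log2(score + 1) the counts were 41, 14 and 12. All 4 kept genes of the IL-12 family and 11 of 16 of the IL-1 family were highest in MΦs. A member was called between groups when limma's adjusted p (Benjamini-Hochberg over all genes fitted) was under 0.05 and the difference was at least 2-fold, on the scale of log2(score + 1). Between β cells and MΦs at No Dox, 34 of 59 members tested were called, of which 4 were higher and 30 lower in β cells, beside 43.2% of all 16380 genes called (23.5% higher, 19.7% lower). Between ECs and MΦs, 34 of 59 were called, 6 higher and 28 lower in ECs, beside 33.5% of all genes (15.9% higher, 17.6% lower). Between β cells and ECs, 26 of 59 were called, 15 higher and 11 lower in β cells, beside 37.7% of all genes (21.2% higher, 16.5% lower). Without β cell replicates 1 and 2, an alternative chosen after seeing the data, 38 of 61 members were called against MΦs (11 higher and 27 lower in β cells, 30 of them among the 34), beside 43% of all 16398 genes. Against ECs 33 of 61 were called in that fit (25 higher and 8 lower, 23 of them among the 26), beside 37.8% of all genes.

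**Figure D1:**
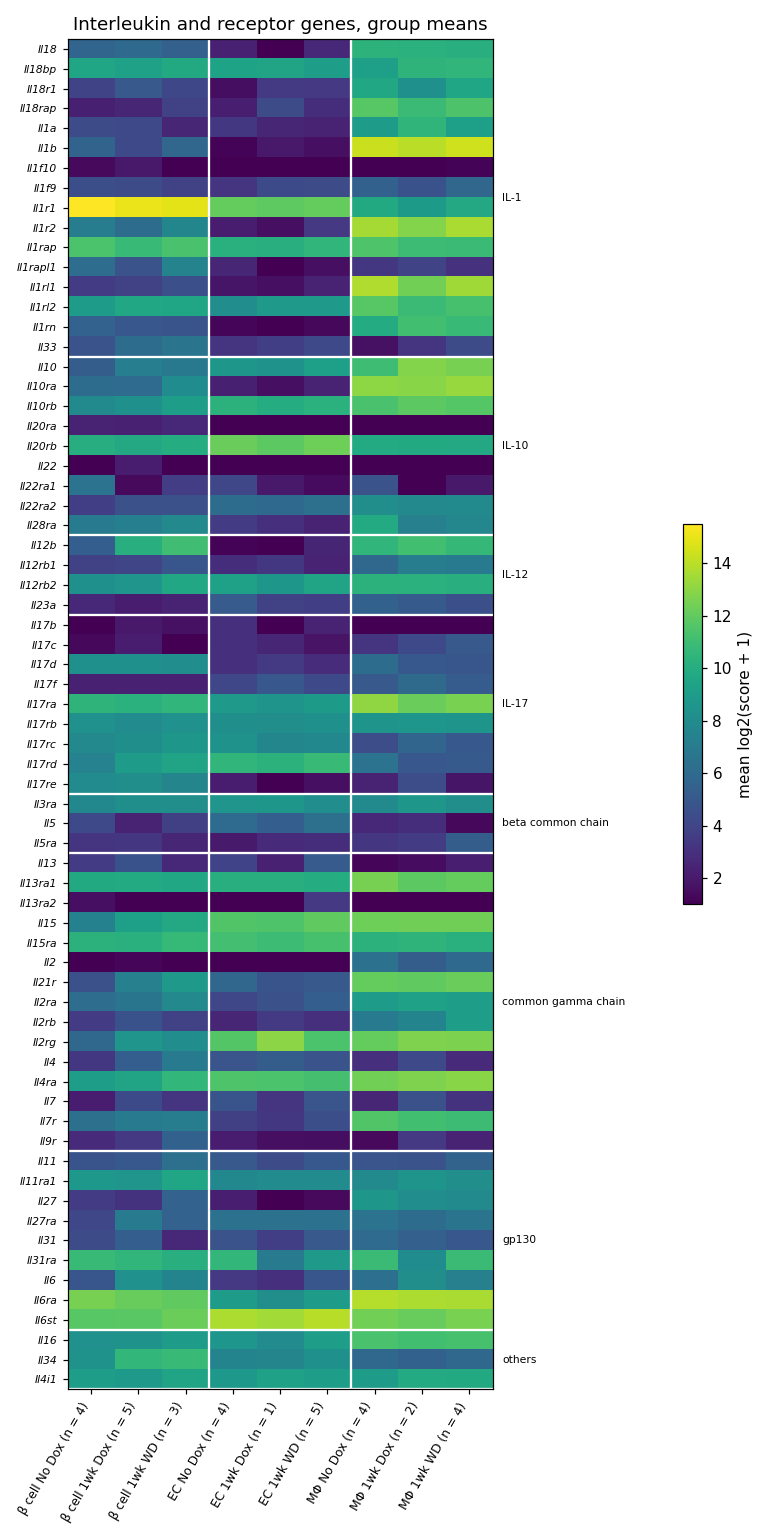
Mean log2(score + 1) of the 68 interleukin and interleukin receptor genes, one per line and grouped by family, in the 9 groups of cell type and time point (columns). On this log scale the highest No Dox mean is in MΦs for 41 genes, in β cells for 14 and in ECs for 12, with 1 tied at the lowest score.

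Il1b, the main inflammatory IL-1 ligand, was a MΦ transcript. Its score was 22677, 18112, 21086 and 20589 in the 4 No Dox MΦ samples, 29, 42, 36 and 121 in β cells and 1, 1, 2 and 1 in ECs. No MΦ sample overlapped another cell type, and the log2 difference was -8.71 for β cells against MΦs (limma adjusted p = 6.1e-08) and -13.18 for ECs against MΦs (adjusted p = 1.43e-09). Its receptor went the other way. Il1r1, the signalling IL-1 receptor, scored 110630, 103924, 30528 and 12948 in No Dox β cells, 3804 to 4519 in ECs and 631 to 1259 in MΦs. Every β cell sample was above every other sample although β cell samples themselves differed widely (mean 64508 ± 49980, SD, n = 4). The log2 difference from MΦs was 5.68 (SE 0.574; limma adjusted p = 8.73e-06), and ECs were above MΦs by 2.24 (SE 0.574; adjusted p = 0.00728). Without β cell replicates 1 and 2, which had the highest Il1r1, the difference of β cells from MΦs was 4.46 (adjusted p = 3.28e-06), and that of Il1b was -8.26 (adjusted p = 3.81e-07). The accessory chain Il1rap was measured in all 3 cell types, with scores of 2025 to 3412 in β cells, 1056 to 1336 in ECs and 2088 to 3900 in MΦs. The decoy and the antagonist were also highest in MΦs. Il1r2, which binds IL-1 without signalling, scored 9731 to 16003 in MΦs, 113 to 161 in β cells and 1 to 16 in ECs and was lower in ECs than in MΦs by a log2 difference of -11.46 (adjusted p = 2.97e-08), and Il1rn scored 799 to 1179 in MΦs, 28 to 65 in β cells and 1 to 3 in ECs.

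With all 4 No Dox β cell samples fitted, the other members called higher in β cells than in MΦs were Il17re, Il17rc and Il17d of the IL-17 family. Without replicates 1 and 2, Il1r1, Il17re and Il17rc were called again, Il17d was not, and Il11ra1, Il13, Il17rd, Il1rapl1, Il33, Il34, Il6 and Il9r were also called higher. Il17re, a receptor chain for IL-17C, scored 645, 455, 127 and 109 in No Dox β cells, 1 to 11 in ECs and 1 to 19 in MΦs. Its log2 difference was 5.58 against MΦs (limma adjusted p = 0.000349) and 5.86 against ECs (adjusted p = 0.000291), with no overlap between β cells and the others, and without replicates 1 and 2 it was 4.48 (adjusted p = 0.00416) and 4.77 (adjusted p = 0.00332). Il17rc, a subunit of the receptor for IL-17A and IL-17F, was above MΦs by 3.38 (adjusted p = 0.00718) with scores of 290, 214, 184 and 231 in β cells and 59, 62, 1 and 29 in MΦs (3.25, adjusted p = 0.035, without replicates 1 and 2). The ligand gene Il17d scored 376, 412, 274 and 220 in β cells, 15, 22, 4 and 1 in ECs and 76, 184, 39 and 41 in MΦs, with no overlap between β cells and the others. It differed from ECs by 5.32 (adjusted p = 0.000146) and from MΦs by 2.16 (adjusted p = 0.0325). The last of these calls was lost when any 1 of 6 of the 8 samples was left out, with log2 differences of 1.89 to 2.22, and without both of β cell replicates 1 and 2 (1.82). The difference from ECs without these samples was 4.98 (adjusted p = 0.0018). The shared chain Il17ra was highest in MΦs (6919 to 14218), then β cells (1208 to 1482), then ECs (351 to 516), with no overlap between neighbours in that order.

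ECs stood above MΦs in 6 members. Il17rd, a membrane regulator of IL-17 and growth factor signalling, scored 1320, 1464, 1589 and 1689 in No Dox ECs and 50 to 168 in MΦs, a log2 difference of 4.03 (SE 1.10; limma adjusted p = 0.0105). Il20rb, a shared receptor chain of the IL-10 family, scored 5112, 4411, 4370 and 4883 in ECs, 893 to 1237 in β cells and 734 to 1249 in MΦs, and ECs were above MΦs by 2.32 (SE 0.176; adjusted p = 6.98e-07). The others were Il17rc (3.92, adjusted p = 0.00362), Il5 (3.45, adjusted p = 0.0251), Il1r1 and Il6st, the signal chain gp130 shared by the IL-6 family. Il5, an eosinophil growth factor, scored 80, 65, 31 and 124 in ECs and 8, 1, 41 and 1 in MΦs, which overlapped. Its call was lost without EC replicate 1, 2 or 4 or MΦ replicate 2 or 4 (log2 difference 2.90 to 3.46). Against β cells, ECs were higher in Il2rg, the common gamma chain (β cells minus ECs -5.73, SE 1.05, adjusted p = 0.00082), and in Il15 (-4.20, SE 1.21, adjusted p = 0.0128). Calls for Il10, Il17rd and Il23a between β cells and ECs had adjusted p of 0.0278 to 0.033, and each was lost when any of several single samples of β cells or ECs was left out (log2 differences of -1.95 to -3.45). Il2rg in β cells was split, at 11 and 8 in replicates 1 and 2 and 329 and 345 in replicates 3 and 4. Without replicates 1 and 2 the log2 differences of β cells from ECs were -3.22 for Il2rg (adjusted p = 9.53e-08), -1.40 for Il15 (adjusted p = 0.0101), -3.37 for Il23a (adjusted p = 0.00499) and -1.23 for Il10 (adjusted p = 0.0401), and Il17rd, at -0.81, was no longer called.

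The members that MΦs expressed above both other cell types included several receptors. Il1rl1, the receptor for IL-33, scored 17076, 11813, 17177 and 10676 in No Dox MΦs against 1 to 157 in β cells and 1 to 6 in ECs. Il18rap, the accessory chain of the IL-18 receptor, scored 2768 to 4688 in MΦs, 1 to 23 in β cells and 3 to 5 in ECs. Il10ra, the ligand-binding chain for IL-10, scored 7039 to 10423, 17 to 165 and 1 to 16. The groups did not overlap for any of these genes, and the log2 differences of β cells from MΦs were -10.17, -9.44 and -6.91 (limma adjusted p = 1.01e-05, 1.05e-06 and 1.63e-05). Those of ECs from MΦs were -11.91, -9.51 and -10.77. Il21r, the receptor for IL-21, was lower in β cells than in MΦs by -7.44 (adjusted p = 7.53e-05), with scores of 3 to 173 against 3192 to 6143. Without β cell replicates 1 and 2 the differences of β cells from MΦs were -8.82 for Il1rl1, -8.15 for Il18rap, -5.73 for Il10ra and -5.32 for Il21r (adjusted p = 4.38e-05, 1.5e-06, 4.87e-05 and 2.56e-05). MΦ samples also carried dendritic cell markers (6 genes, summed score 39124 to 49071 at No Dox), neutrophil markers (5 genes, 1245 to 3035) and NK cell markers (5 genes, 604 to 1890), and their part in these scores was not tested.

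At 1wk Dox, when VEGF-A was induced in β cells, 6 of 59 members tested in MΦs were called, beside 2.26% of all 15014 genes. Il10, Il18bp and Il1rn rose (1.61% of all genes rose), and Il1rl1, Il28ra and Il31ra fell (0.653% of all genes fell). The called members that rose include no receptor, and those that fell are all receptor chains, a contrast of 6 calls that was not tested. Receptor chains make up 36 of the 68 members. Among members not called, the receptor chains Il2rg, Il10rb, Il12rb1 and Il11ra1 were higher without overlap and the ligands Il1b and Il16 lower. The median log2 difference was -0.09 over the 59 members and 0.03 over all genes. The 2 samples of 1wk Dox lay outside the 4 of No Dox for 29 of 59 members, beside 30.9% of all genes.

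Il10, an anti-inflammatory ligand, had MΦ scores of 2374, 2127, 3243 and 1032 at No Dox, 9282 and 5427 at 1wk Dox, then 4567, 9107, 6044 and 4837 at 1wk WD. All 6 samples taken after Dox had begun were above all 4 No Dox samples, and 1wk Dox and 1wk WD overlapped. Means were 2194 ± 911 (SD, n = 4), 7354.5 ± 2726 (n = 2) and 6139 ± 2080 (n = 4). The log2 difference from No Dox was 1.81 (SE 0.392; limma adjusted p = 0.0249) at 1wk Dox, then 1.54 (SE 0.320; adjusted p = 0.0409) at 1wk WD. The receptor chains of IL-10 were not called at either time: Il10ra scored 7039 to 10423 at No Dox and 7604 to 10626 later, and Il10rb 2412 to 2789 and 2895 to 4073.

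Il1rn encodes the IL-1 receptor antagonist, which occupies Il1r1 without signalling. Its MΦ scores were 1179, 1125, 877 and 799 at No Dox, 2787 and 1798 at 1wk Dox, then 1666, 2087, 1432 and 2081 at 1wk WD. No later sample reached down to the No Dox range. At 1wk Dox the log2 difference was 1.19 (SE 0.237; limma adjusted p = 0.0187). At 1wk WD it was 0.87 (SE 0.194; adjusted p = 0.0509), which missed the threshold. The IL-1 ligands were not called. Il1a scored 580, 299, 897 and 380 at No Dox, 2323 and 898 at 1wk Dox, then 343, 880, 525 and 680 at 1wk WD. Both 1wk Dox values were above all No Dox values, the lower of them by a score of 1, and the log2 difference was 1.55 (SE 0.482; adjusted p = 0.0862). Leaving out No Dox replicate 3 gave a difference of 1.84 for Il1a, with an adjusted p of 0.0377. Il1b scored 17566 and 15706 at 1wk Dox, below the 4 No Dox samples, with an adjusted p of 0.267.

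Il18bp encodes the soluble protein that binds IL-18 and keeps it from its receptor. Its MΦ scores were 528, 674, 641 and 482 at No Dox, 1496 and 1245 at 1wk Dox, then 1089, 1597, 1540 and 1899 at 1wk WD. The No Dox samples were all below the later ones. At 1wk Dox the log2 difference was 1.24 (SE 0.234; limma adjusted p = 0.0149), then 1.38 (SE 0.191; adjusted p = 0.00703) at 1wk WD. Il18 itself scored 1133 to 1696 at No Dox and 1110 to 1387 in the 6 later samples, and was not called. In ECs, Il18bp scored 672, 586, 782 and 743 at No Dox, 703 in the 1wk Dox sample and 673, 600, 575, 383 and 509 at 1wk WD. The 1wk WD response of MΦs minus that of ECs was 1.74 (SE 0.271; limma adjusted p = 0.00349), and Il18bp was the only 1 of 60 members tested whose response was called as different between the 2 cell types, beside 1.4% of all 15603 genes. Because Il18bp rose at both times in MΦs and its response differed from that of ECs, the 250 bases before its annotated start are shown, from RefSeq (GRCm38.p6, chr7:102018233-102018482, minus strand), 5′ to 3′ and in lower case throughout because none of the searched motifs was in it.
Il18bp: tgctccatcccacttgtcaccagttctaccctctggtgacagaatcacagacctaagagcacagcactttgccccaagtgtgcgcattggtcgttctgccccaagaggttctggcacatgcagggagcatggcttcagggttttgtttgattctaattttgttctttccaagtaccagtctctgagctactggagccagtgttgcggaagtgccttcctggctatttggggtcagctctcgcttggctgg

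**Figure D2:**
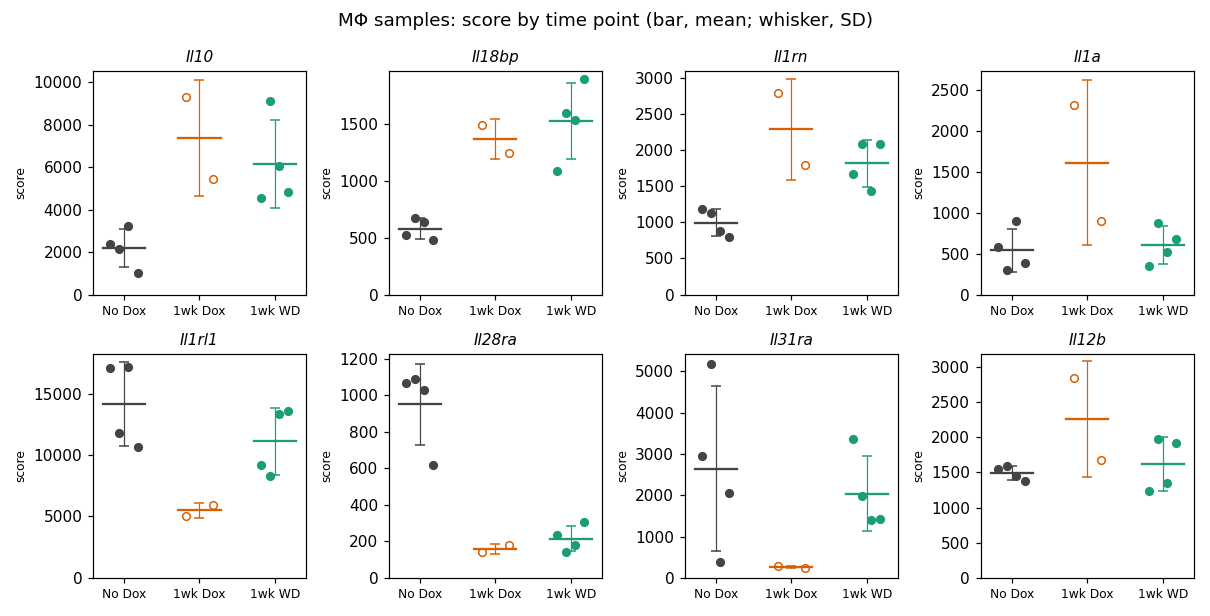
Scores of 8 interleukin genes in the 10 MΦ samples (No Dox, then 1wk Dox, then 1wk WD), with bars at the group mean, whiskers of 1 SD and open points for libraries of the second run of numbers. The 1wk Dox samples lay outside the No Dox range for each gene, as for 30.9% of all genes. They lay above it for Il10, Il18bp, Il1rn, Il1a and Il12b and below it for Il1rl1, Il28ra and Il31ra. Il1a and Il12b were not called.

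Il28ra (Ifnlr1), the ligand-binding chain of the receptor for interferon lambda, scored 1065, 1088, 1028 and 617 in No Dox MΦs. It scored 139 and 179 at 1wk Dox, then 234, 143, 180 and 303 at 1wk WD, so that every later sample was below every No Dox sample. At 1wk Dox the log2 difference was -2.55 (SE 0.347; limma adjusted p = 0.00407), and at 1wk WD it was -2.16 (SE 0.283; adjusted p = 0.00563). The ligand genes Il28a and Il28b did not reach a score of 20 in any sample, and the shared second chain Il10rb was not called. In ECs Il28ra scored 1 to 19 in every sample.

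Il31ra, the receptor chain that pairs with Osmr to bind IL-31, had the widest spread at No Dox of the 6 called members (SD of log2(score + 1) 1.62, n = 4). MΦ scores were 2960, 5171, 382 and 2049 at No Dox, 287 and 242 at 1wk Dox, then 3350, 1981, 1393 and 1425 at 1wk WD. Both 1wk Dox samples were below all others, but No Dox replicate 3 lay close to them. The log2 difference from No Dox at 1wk Dox came to -2.82 (SE 0.740; limma adjusted p = 0.0496). From 1wk Dox to 1wk WD it was 2.85 (SE 0.740; adjusted p = 0.205), and without No Dox replicate 3 this difference was called. Low values also occurred in ECs. Il31ra scored 1913, 1257, 2031 and 1268 in ECs at No Dox, 125 in the single 1wk Dox sample and 1272, 1651, 67, 99 and 1074 at 1wk WD. Within the 1wk WD group ECs thus held 3 samples in the No Dox range or near it and 2 far below. In β cells the gene ranged from 400 to 2936 and the 3 groups overlapped. The score of 400 was in 1wk WD replicate 3, the only β cell library of the second run of numbers, and the next lowest was 656. Libraries of the second run thus scored 287 and 242 in MΦs, 125 in ECs and 400 in β cells. The EC scores of 67 and 99 were in the first run. The part of the run in these values was not tested. Its ligand Il31 stayed at 158 or below in all samples. The 250 bases before the start of Il31ra (RefSeq, GRCm38.p6, chr13:112580663-112580912, minus strand) are shown, 5′ to 3′, because they hold a match to a STAT motif, TTCNNNGAA, in capitals at -191 to -183 from the start.
Il31ra: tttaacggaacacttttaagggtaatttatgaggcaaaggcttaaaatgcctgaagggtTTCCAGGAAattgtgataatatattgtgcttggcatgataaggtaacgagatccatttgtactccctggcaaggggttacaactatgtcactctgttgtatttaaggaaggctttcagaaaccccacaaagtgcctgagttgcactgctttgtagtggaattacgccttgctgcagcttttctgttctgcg

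RefSeq promoter sequences were used for 5 of the 6 members called in MΦs at 1wk Dox, and 3 motifs were searched on both strands in the 250 bases before the start. TTCNNNGAA reads the same on both strands and occurred in 7.02% of 32851 promoters. The core of an interferon-stimulated response element, GAAA and GAAA with 2 bases between, occurred in 2.98% and in none of the 5 genes. An NF-κB motif, GGG and TTTCC with 2 bases between, occurred in 1.41%, and in 1 of the entries of Il1rn at -51 to -42. These are matches of letters only.

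**Figure D3:**
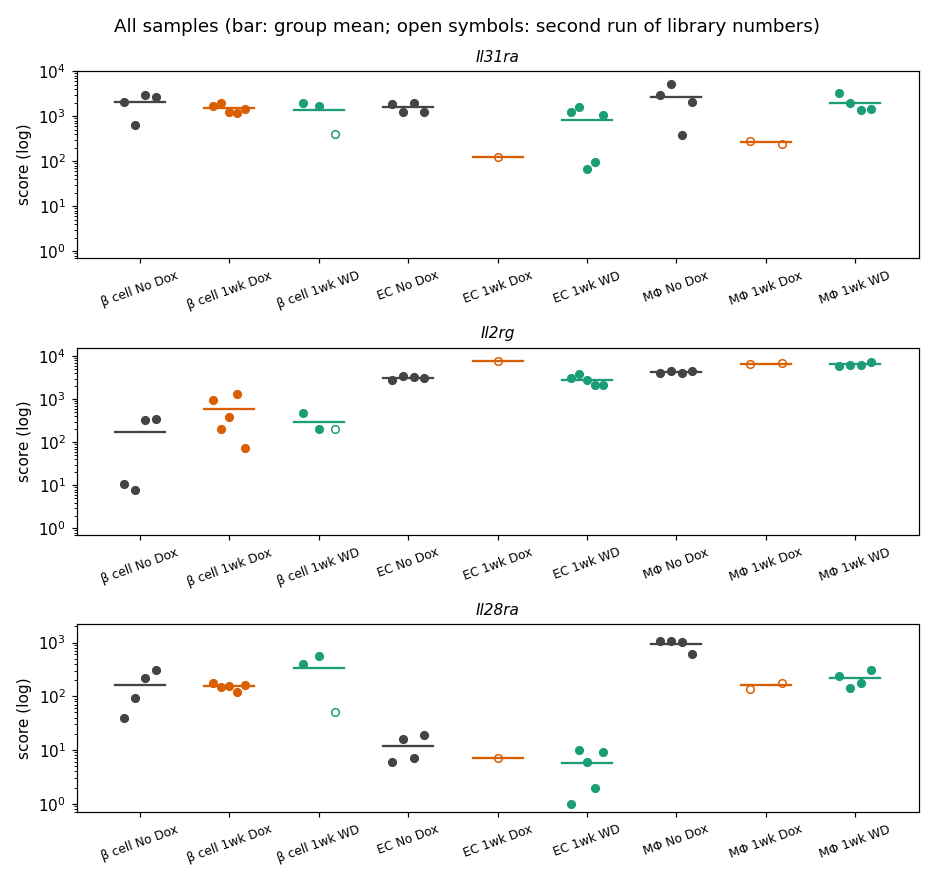
Scores of Il31ra, Il2rg and Il28ra on a log axis in all 32 samples by cell type and time point, with bars at the group mean and open points for libraries of the second run of numbers. Il31ra was at 125 or below in 3 EC samples, Il2rg was highest in the 1wk Dox EC sample at 7916 and Il28ra was lower in the later MΦ samples than at No Dox.

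Il1rl1 lies in a cluster of IL-1 receptor genes, all on the plus strand of mouse chromosome 1 (build mm9). In order they are Il1r2 (chr1:40141613-40182064), Il1r1 (chr1:40281925-40373043), Il1rl2 (chr1:40381472-40422316), Il1rl1 (chr1:40486415-40522260), Il18r1 (chr1:40522397-40557699) and Il18rap (chr1:40572207-40608550). They span 467 kb and are the only 6 genes of the table in that span. In all 6, both 1wk Dox MΦ samples were below all 4 No Dox samples, as in 16 of 59 members (27.1%, beside 14.7% of all genes), while 30.9% of all genes lay outside the No Dox range on either side, and Il1rl1 was the 1 of the 6 that was called. Its scores were 5060 and 5941 at 1wk Dox, then 9177, 8342, 13368 and 13584 at 1wk WD, against 10676 to 17177 at No Dox, with a log2 difference of -1.34 at 1wk Dox (SE 0.246; limma adjusted p = 0.0135). The 1wk WD samples lay above those of 1wk Dox and overlapped those of No Dox. Its ligand Il33 scored 1 to 9 in the MΦ samples of No Dox and 1wk Dox, and 4 to 75 in those of 1wk WD.

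The 5 neighbours of Il1rl1 were not called. Il1r2 scored 16003, 9731, 11967 and 11468 at No Dox, 7546 and 6789 at 1wk Dox, then 10924 to 15445 at 1wk WD, and its log2 difference at 1wk Dox, -0.76 (SE 0.193; limma adjusted p = 0.0442), was under 2-fold. Il18rap scored 4688, 2768, 3114 and 3335 at No Dox and 1519 and 2386 at 1wk Dox (-0.84, SE 0.222, adjusted p = 0.0507). Il1rl2, the IL-36 receptor, scored 3830, 2393, 4800 and 3180 and then 1746 and 2022 (-0.87, SE 0.237, adjusted p = 0.0554). Both adjusted p lay just above the threshold of 0.05. Il18r1, the ligand-binding chain for IL-18, scored 1127, 540, 1127 and 543 and then 211 and 460 (-1.32, SE 0.378, adjusted p = 0.0656), and Il1r1 631, 1181, 1259 and 701 and then 425 and 548 (-0.90, SE 0.297, adjusted p = 0.102). Il18r1 was called without No Dox replicate 2 (-1.50) or 4 (-1.50), and Il1rl2 without No Dox replicate 2 (-1.05). At 1wk WD the 6 genes were not called.

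**Figure D4:**
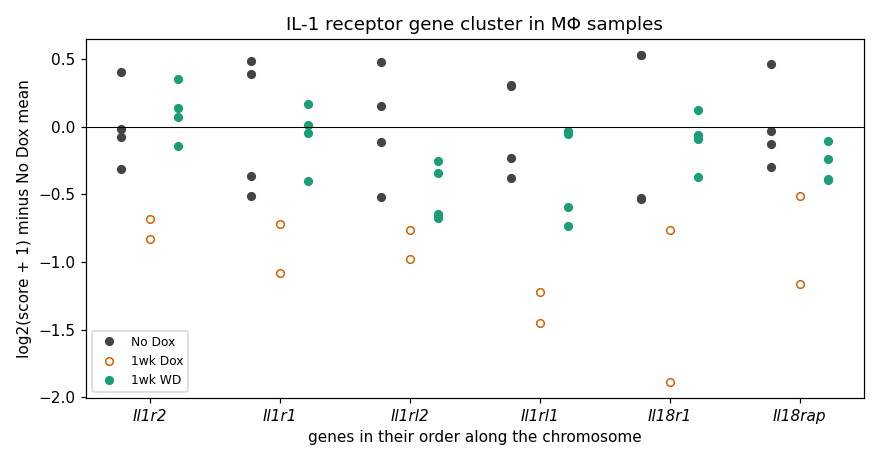
The 6 genes of the IL-1 receptor cluster in chromosome order, with each MΦ sample's log2(score + 1) minus the No Dox mean of that gene. Both 1wk Dox samples lie below all 4 No Dox samples for every one of the 6 genes, as they do for 14.7% of all genes, and the 1wk WD samples overlap the No Dox samples.

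The 6 calls at 1wk Dox rest on few samples. Without the trend of the spread, or with only both groups compared in the fit, Il28ra was the only member called. Without 1wk Dox replicate 4, 0 of 59 members and 0 genes in all were called, and without replicate 5 only Il28ra was (in each case a lone sample was assumed to vary like the other groups). Leaving out any of the other MΦ samples left 5 to 7 members called, and Il31ra was lost in all but 1 of those fits. Other marker lists also moved in these samples. Endothelial markers summed to 2483 to 3268 in No Dox MΦs and 4694 to 5733 at 1wk Dox, and acinar markers to 23254 to 11332109 and 879 to 3201. T cell markers summed to 960 to 1673 and then 2722 to 3096, mostly from Cd4 (861 to 1442, then 2996 and 2624), a gene that MΦs can also carry. The T cell receptor chain Cd3e scored 9 to 154 and then 11 and 18, and none of the other 5 T cell markers had both 1wk Dox samples above No Dox. MΦ markers themselves summed to 271690 to 352860 and then 363226 to 441552. The summed dendritic cell markers overlapped (39124 to 49071, then 41303 to 41824), but 3 of the 6 genes did not: Ccr7 was higher (973 to 3315, then 5487 and 5672), and Flt3 (5443 to 7609, then 2978 and 3479) and Zbtb46 (2907 to 5410, then 2580 and 2794) were lower. Neutrophil markers overlapped (1245 to 3035, then 1915 to 2049). Their part in the calls was not tested. In bulk RNA of sorted cells, fewer cells of a type and less RNA per cell cannot be told apart.

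Several other members lay outside the No Dox range at 1wk Dox without being called. Il2rg, the common gamma chain, scored 4084, 4648, 4068 and 4516 at No Dox, 6587 and 6883 at 1wk Dox, then 5770, 6295, 6153 and 7501 at 1wk WD. All later samples were above all No Dox samples, but the log2 differences of 0.64 (limma adjusted p = 0.025) and 0.57 (adjusted p = 0.0383) were under 2-fold. Reads of Il2rg cannot be told from those of Gm20489, which overlaps it on the same strand. Il12b, the p40 chain shared by IL-12 and IL-23, scored 1547, 1598, 1447 and 1380 at No Dox, 2850 and 1677 at 1wk Dox, then 1230, 1977, 1355 and 1921 at 1wk WD. The 1wk Dox values were above No Dox, the lower of them narrowly, and the log2 difference was 0.55 (SE 0.241; adjusted p = 0.21). Its partners were low or not kept, with Il12a at 10 or below everywhere and Il23a at 14 to 104 in MΦs. Il6 scored 81, 97, 93 and 51 at No Dox, 411 and 196 at 1wk Dox, then 79, 270, 201 and 152 at 1wk WD, so that 1wk Dox lay above No Dox and 1wk WD overlapped both (log2 difference 1.85, adjusted p = 0.065 at 1wk Dox). Without 1wk WD replicate 1 in the fit, Il6 was called at 1wk Dox (adjusted p = 0.0385). Il7 had the largest log2 difference among members that did not overlap and were not called (2.02, adjusted p = 0.462), at scores of 1 to 17 and then 22 and 24.

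One week after withdrawal, 3 of 59 members were called in MΦs against No Dox, beside 0.626% of all genes. Il10 and Il18bp rose (0.42% of all genes rose) and Il28ra fell (0.206% of all genes fell), and all 3 had also been called at 1wk Dox, a comparison that shares the No Dox samples. The groups did not overlap for 11 of 59 members, beside 9.24% of all genes. The call for Il28ra held in all alternatives run and that for Il18bp in all but one. The call for Il10 was lost when any 1 of 8 of the 10 MΦ samples was left out (log2 difference 1.22 to 1.64, adjusted p = 0.0514 to 0.133), the exceptions being No Dox replicate 3 and 1wk WD replicate 1. It was also lost with no filter on low scores, without the trend of the spread and with only both groups fitted, at the same difference of 1.54 (adjusted p = 0.0563 to 0.139). Marker lists differed between the same samples. From No Dox to 1wk WD the MΦ markers summed to 271690 to 352860 and then 368045 to 451840, the T cell markers to 960 to 1673 and then 2428 to 4319, mostly from Cd4 (2019 to 3904 at 1wk WD), and lymphatic endothelial markers to 448 to 1108 and then 229 to 379. The dendritic cell gene Flt3 scored 5443 to 7609 and then 3819 to 5035. None of these overlapped, and their part in the 3 calls was not tested. Gene by gene, only Lyve1 of the lymphatic list did not overlap (309 to 648, then 160 to 215). Of the T cell list only Cd4 and Lat (10 to 25, then 27 to 87) did not overlap. Between 1wk WD and 1wk Dox, 0 of 59 members were called by limma (9 at an unadjusted p under 0.05), beside 0.0866% of all genes, and 21 did not overlap, beside 30% of all genes.

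At low scores, 2 members stood above No Dox in all 4 1wk WD MΦ samples. Il5ra, the ligand-binding chain for IL-5, scored 15, 9, 8 and 5 at No Dox, 14 and 8 at 1wk Dox, then 60, 34, 31 and 32 at 1wk WD. Il17c scored 15, 12, 1 and 19, then 24 and 12, then 53, 28, 21 and 32. Neither was called against No Dox (log2 difference 2.01, limma adjusted p = 0.143 for Il5ra, and 1.77, adjusted p = 0.293 for Il17c). Il5ra was above 1wk Dox by 1.74 (adjusted p = 0.517) and Il17re below it by -2.60 (adjusted p = 0.578), at scores of 18 and 24 against 1 to 6. Differences at such scores rest on values near the lowest of the scale.

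Among the other receptors of MΦs, Il4ra, the shared receptor for IL-4 and IL-13, scored 4941 to 6087 at No Dox, 6086 and 6961 at 1wk Dox, then 7258 to 8740 at 1wk WD. Il7r, the receptor for IL-7, scored 2636 to 3517, 2081 and 2316, and 1559 to 2505. Neither was called (limma adjusted p = 0.0648 and 0.0644 at 1wk WD), and for both the 1wk WD samples lay outside the No Dox range. Il6ra (12046 to 17310) and Il15 (3415 to 8517) were not called, and their groups overlapped. Il2rb, the chain that IL-2 and IL-15 share, moved with an NK cell marker: the 5 MΦ samples with a score of 357 to 1119 had 241 to 843 of Ncr1, an NK cell receptor, and the 5 with 26 to 273 had 52 to 182. These samples came from all 3 groups.

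In β cells, no member was called at any time. At 1wk Dox against No Dox, 0 of 58 were called by limma (5 at an unadjusted p under 0.05; 0.0122% of all 16346 genes were called) and 0 did not overlap (2.55% of all genes). At 1wk WD against No Dox, 0 were called (7 unadjusted; 0% of all genes), and 2 did not overlap (6.44% of all genes). At 1wk WD against 1wk Dox, 0 were called (3 unadjusted; 0% of all genes) and 1 did not overlap (4.97% of all genes). The median log2 differences over the members were 0.22, 0.60 and 0.42, and over all genes 0.03, 0.06 and 0.05. The spread among the 4 No Dox samples was wide: of the 58 members, 33 were lower in both of replicates 1 and 2 than in both of 3 and 4 (56.9%, beside 32% of all genes), and 10 were higher in both (17.2%, beside 32%).

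The β cell samples differed in how much stromal RNA they held. In No Dox replicates 1 and 2 the pericyte and stromal markers summed to 992 and 1118, in replicates 3 and 4 to 136880 and 491402. Across all 12 β cell samples, the 5 with the lowest sums (992 to 132586) were set beside the 7 others (136880 to 491402), a split made on those markers after seeing the data, between close sums, and given with no test. Of 58 members, 4 were higher in the 5 samples without overlap (6.9%, beside 5.2% of all genes), 7 were lower (12.1%, beside 6.09%) and 47 overlapped. With 4 samples against 8, 3 were higher (5.17%, beside 5.2%) and 8 lower (13.8%, beside 7.19%). With 6 against 6, 0 were higher (2.5% of all genes) and 2 lower (3.45%, beside 5.23%), and with 7 against 5, 2 were higher (3.45%, beside 4.78%) and 5 lower (8.62%, beside 4.78%). No member separated at all 4 divisions. The values that follow describe the samples at the division into 5 and 7 and set no member apart. The first 5 come from all 3 groups and also had the higher sums of β cell markers, 2828658 to 10933748 against 513179 to 1917433. Il1r1 scored 56415 to 110630 in the 5 and 12948 to 39188 in the 7. Il6ra, the ligand-binding chain for IL-6, scored 5529 to 10877 and 2325 to 4526, and Il17re 418 to 645 and 59 to 389. Il13ra1, a receptor chain for IL-13, was the fourth that was higher without overlap.

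Il34, a ligand of the CSF1 receptor of MΦs, scored 17 to 1029 in the 5 samples with the least stromal RNA and 1434 to 5329 in the 7 others. Il15, a ligand that supports NK and memory T cells, scored 16 to 392 and 508 to 2119. Il4ra scored 234 to 619 and 670 to 2702, and Il6st 2145 to 3360 and 3450 to 6624. These 4 did not overlap, nor did Il10, Il22ra2 and Il2ra, whereas Il17ra (919 to 1413 and 1058 to 1767), Il18bp (533 to 1266 and 434 to 1059) and Il20rb (815 to 1237 and 398 to 1278) did. The part of stromal RNA in these scores was not tested.

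**Figure D5:**
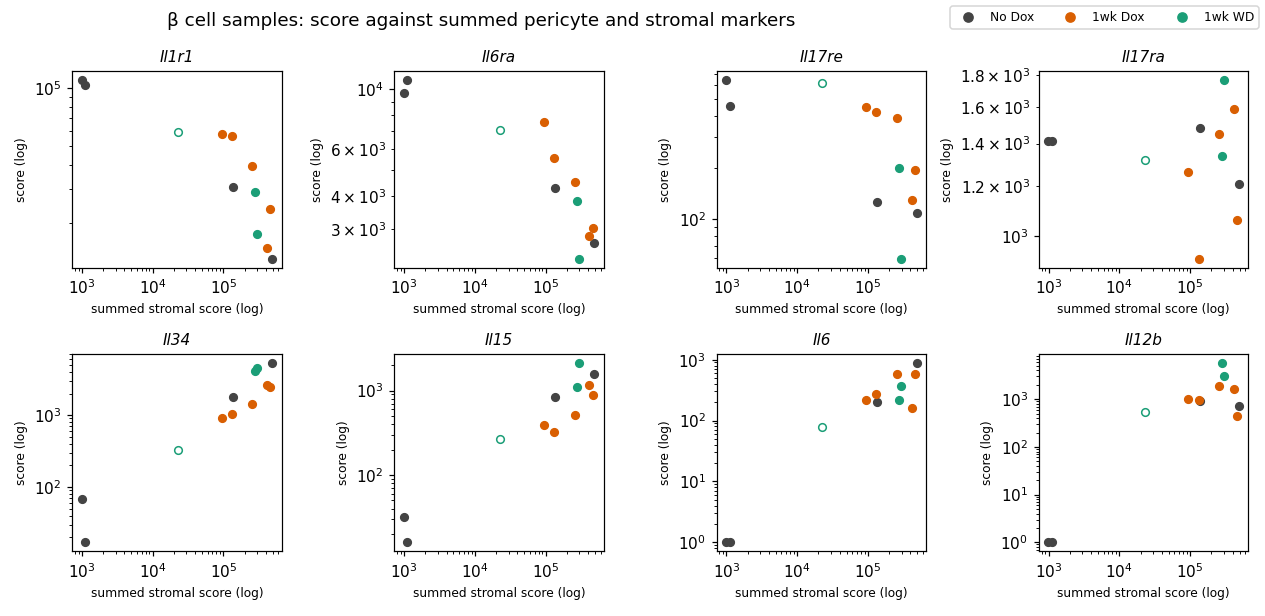
Scores of Il1r1, Il6ra, Il17re, Il17ra, Il34, Il15, Il6 and Il12b against the summed score of 8 pericyte and stromal markers in the 12 β cell samples, both axes on a log scale, with colours for time points and open points for the second run of numbers. Il1r1, Il6ra and Il17re are highest and Il34 and Il15 lowest in the 5 samples with a stromal sum of 132586 or less, a division made after seeing the data. None of these genes separated when the samples were divided into 6 and 6.

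In β cells Il12b scored 1, 1, 913 and 730 at No Dox, 454, 983, 1873, 1635 and 1012 at 1wk Dox, then 3103, 5750 and 544 at 1wk WD. Only the No Dox replicates low in stromal markers were at the lowest score, and the other samples overlapped between groups. At 1wk Dox the log2 difference was 4.72 (SE 1.81; limma adjusted p = 0.653), then 5.72 (SE 2.06; adjusted p = 0.589) at 1wk WD. Without No Dox replicates 1 and 2, a choice made after seeing the data, it was 0.39 (adjusted p = 0.964) and 1.39 (adjusted p = 0.882). Dendritic cell markers summed to 469, 281, 3780 and 4917 at No Dox, 2210 to 4634 at 1wk Dox, then 12551, 9811 and 2885 at 1wk WD, and the 2 samples with the highest sums had the highest Il12b. In ECs Il12b was at 1 to 20.

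Il12rb2, a chain of the IL-12 receptor, scored 280, 166, 568 and 336 at No Dox, 456, 324, 241, 1114 and 174 at 1wk Dox, then 1250, 989 and 395 at 1wk WD. The groups overlapped (log2 difference 1.36 at 1wk WD, limma adjusted p = 0.61). The highest values at each of the later times, 1114 in 1wk Dox replicate 4 and 1250 in 1wk WD replicate 1, were in the β cell samples with the highest summed T cell markers, 12208 and 13865, against at most 1730 in the other 10. The next highest value, 989 in 1wk WD replicate 2, was in 1 of these 10, with Cd3e at 26 against 3788 and 2164 in the first samples. The part of T cell RNA was not tested. The members whose groups did not overlap were Il4 (3 to 24 at No Dox, and 207, 124 and 81 at 1wk WD; log2 difference 3.66, adjusted p = 0.462) and Il17rc (184 to 290, and 422, 433 and 351; 0.82, adjusted p = 0.575). Without No Dox replicates 1 and 2 the differences at 1wk WD were 0.85 for Il12rb2 (adjusted p = 0.932), 2.89 for Il4 (adjusted p = 0.508) and 0.95 for Il17rc (adjusted p = 0.63). From 1wk Dox to 1wk WD it was Il10ra (25 to 115, and 448, 272 and 147; 1.95, adjusted p = 0.728). Il4 overlaps Kif3a, and the counting is not stated to use strand, so its reads are uncertain.

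Il22ra1, the IL-22 receptor, which pancreatic acinar cells are known to express, moved with the acinar markers. In β cells it scored 81, 1, 957 and 466 at No Dox, 1, 1, 6, 1 and 1 at 1wk Dox, then 133, 6 and 1 at 1wk WD. In No Dox MΦs it scored 1, 1065, 1 and 102. Of all 32 samples, the 9 with a score of 30 or more had summed acinar markers of 99098 to 12251564, and 22 of the 23 others, at scores of 7 or less, had sums below that range (the exception was 101831). When the No Dox β cell replicates 1 and 2 were left out, Il22ra1 was the 1 of 58 members called in β cells at 1wk Dox, beside 0.487% of all genes, and the remaining No Dox samples held the highest acinar sums of that cell type.

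In ECs, 0 of 42 members tested were called at 1wk WD against No Dox by limma (12 at an unadjusted p under 0.05), beside 1.76% of all 14167 genes. No member's groups were free of overlap, beside 10.7% of all genes. The median log2 difference was 0.13 over the members and 0.0025 over all genes. Il10 scored 702, 303, 355 and 336 at No Dox and 568, 701, 578, 659 and 452 at 1wk WD, with overlap through No Dox replicate 1. Il34 scored 150 to 279 and 247 to 545, and Il15 2479 to 3638 and 2892 to 5635. Summed stromal markers in these ECs were 5604 to 12579 at No Dox and 16659 to 69933 at 1wk WD. Lower at 1wk WD without overlap were endothelial markers (570249 to 603178, then 412593 to 478602), acinar markers (62244 to 1676055, then 698 to 60702), dendritic cell markers (11424 to 13868, then 8693 to 10423) and lymphatic endothelial markers (13961 to 16763, then 11596 to 11986). The dendritic cell sum was mostly Zbtb46 (11383 to 13784, then 8644 to 10399). The lymphatic sum was mostly Flt4 (12759 to 15564, then 9769 to 10753), while Prox1 of that list was higher (699 to 913, then 1065 to 1767). In the endothelial list Eng, Tie1, Kdr and Flt1 were lower without overlap, and Emcn, Tek, Plvap, Cdh5 and Pecam1 overlapped. Whether these sums reflect other cells, and their part in the member scores, was not tested.

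Only 1 EC sample labelled 1wk Dox was analysed here, so no test was made and the difference has no replicate check. Of 38 members compared, 7 were at least 2-fold away from the No Dox mean and outside the No Dox range, beside 10.1% of 14047 genes. Il2rg scored 7916 against 2744 to 3435, and Il31ra 125 against 1257 to 2031 (log2 difference 1.33 and -3.65). The others were low in both: Il18rap scored 20 against 3 to 5, Il21r 26 against 37 to 141, Il23a 13 against 22 to 47, Il7 8 against 17 to 44 and Il22ra1 3 against 5 to 54. Il1r1 (3752 against 3804 to 4519) and Il20rb (3662 against 4370 to 5112) were below the No Dox range by less than 2-fold.

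Among 42 further genes of interleukin signalling, such as JAK kinases, STAT factors and adaptors, few were called over time. In MΦs at 1wk Dox, 2 of 40 rose, the IL-1 receptor adaptor Myd88 (log2 difference 1.24, SE 0.273, limma adjusted p = 0.0257) and the inflammasome adaptor Pycard (1.07, SE 0.275, adjusted p = 0.0454), and 0 fell, beside 1.61% and 0.653% of all genes. At 1wk WD, 0 of 40 were called by limma against No Dox (11 at an unadjusted p under 0.05), beside 0.626% of all genes. From 1wk Dox to 1wk WD, 1 fell, the IL-6 family ligand Clcf1 (-1.11, SE 0.142, adjusted p = 0.0192), beside 0.0666% of all genes. In β cells 0 of 41 were called by limma in any comparison (2, 6 and 2 at an unadjusted p under 0.05; at most 0.0122% of all genes were called), and in ECs 0 of 35 (9 unadjusted; 1.76% of all genes). Between cell types at No Dox, 4 of 42 were higher and 29 lower in β cells than in MΦs (23.5% and 19.7% of all genes), 4 higher and 19 lower in ECs than in MΦs (15.9% and 17.6%), and 7 higher and 16 lower in β cells than in ECs (21.2% and 16.5%).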

How the data were processed

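RNA of sorted islet cells had been amplified, sequenced as paired reads, aligned with TopHat2 2.0 to the mouse genome (mm9) and normalised by TMM by the authors. The authors deposited 1 value per gene and sample, used here as a score: normalised values in whole numbers from 1 upward, not counts. Whether they are per length is not given in the sources used here, so levels of different genes were not compared, and the depth behind a score is unknown. Of 38 value columns, 6 match no sample and were not used.

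Samples were grouped by cell type and time point as per the labels, and the study's legends call them biological replicates, each pooled from islets of more than 1 mouse. Genes whose mean score reached 20 in 1 or more of the fitted groups were tested on log2(score + 1) with limma 3.58.1 (R 4.3.3), with a trend of the spread on expression, all time points of a cell type in 1 fit (the 3 cell types in 1 fit at No Dox), and Benjamini-Hochberg adjustment over all genes fitted. Changes were called at an adjusted p under 0.05 and a fold of 2 or more. Ranges and figures were made in Python 3.11.15 with pandas 2.3.3 and matplotlib 3.10.9. The fits were tested on simulated data.

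Members, families, marker lists and the signalling list were chosen with earlier results of these data known. Named, with values in every sample or as ranges, were members called over time, genes the study names, the 3 largest differences without overlap per time comparison, their ligands and receptors, and per pair of cell types at No Dox the 5 largest called differences each way. Il2rb, Il22ra1, Il4ra, Il6ra and the genes set beside stromal markers were singled out after their values were seen. Coordinates are those of the table (mm9), and 81 of the 85 symbols had the same ones in GENCODE M1. Il10rb, Il11ra1, Il16, Il17c, Il2, Il27, Il27ra, Il2rg, Il4 and Il4i1 overlap other genes and are uncertain. Alternatives were the pseudocount, the filter on low scores, the scaling, the trend, the groups fitted, the replicate number as a block, each sample left out, and β cell No Dox replicates 1 and 2 left out together.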

Additional observations from a re-analysis of the deposited data

Results flagged for a closer look

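In groups of 4 to 10 samples, a sample that stood apart by Dixon's test was looked for in 9 genes over 54 pairs of gene and group, and chance would mark about 1 in 20. The test marked 3. In MΦs at No Dox, Il28ra scored 617 in replicate 4 and 1028 to 1088 in the others. Without this sample the calls of Il28ra at 1wk Dox and 1wk WD remained. In ECs at No Dox, Il12b scored 2 in replicate 4 and 1 in the others, and Il1rn scored 3 in replicate 4 and 1 in the others, both at the bottom of the scale.

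The 1wk WD response of Il18bp differed between MΦs and ECs, by 1.74 on the log2 scale (limma adjusted p = 0.00349). It was 1.38 in MΦs, with 4 of 4 samples above all No Dox samples, and -0.36 in ECs (adjusted p = 0.25), where the groups overlapped.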

How the results depend on the processing

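Of 1305 values recomputed over 71 results, 1204 kept their direction and their side of the threshold (counts, within 1.5 times), and 0 turned direction. For the members followed singly 80 calls were lost and 8 gained. Over all members tested in 208 recomputed fits, 139 calls were lost (22 members) and 76 gained (28 members), most of them between cell types (a member that a filter left untested counts as lost). In MΦs at 1wk Dox, 1 of 59 members (Il28ra) was called without the trend of the spread and 1 (Il28ra) when only both groups compared were fitted, 0 with the replicate block, and 0 to 7 with 1 sample left out. In MΦs at 1wk WD, 1 (Il28ra) was called without the trend. Between 1wk WD and 1wk Dox, 1 (Il31ra) was called when only both groups were fitted, and 0 to 1 with 1 sample left out, the 1 being Il31ra without No Dox replicate 3. The difference between MΦ and EC responses gave 2 calls with a pseudocount of 20 (Il28ra added) and 1 to 2 with 1 sample left out (Il1rl2 added without EC 1wk WD replicate 3, Il1rap without MΦ No Dox replicate 2 or 1wk WD replicate 1). In β cells at 1wk Dox, 1 (Il22ra1) was called without No Dox replicates 1 and 2. Samples that share a replicate number did not deviate together consistently (correlations of -0.48 to 0.384), so the number was not taken as a pairing. The highest correlation was between ECs and MΦs of No Dox replicate 2, and whether such samples came from the same islets is not known. The block fit for MΦs at 1wk Dox, where only number 4 is shared, left 0 calls. Under the block Il1rapl1 was lost between β cells and ECs (25 called) and Il2rb between β cells and MΦs (33 called). The cause of these changes was not tested, except that the fits without a sample and with 2 groups have fewer samples. Filters left members kept by the rule at 66 (score of 20 in 2 samples) or 64 (a group mean of 20). Depth is unknown, so whether a member near the lowest score is absent or undersampled cannot be told, and 2 samples of MΦs and 1 of ECs limit every statement on 1wk Dox.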

Other observations

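A few members were seen in 1 or 2 samples at most. Il22 scored 75 in β cells at 1wk Dox replicate 2 and 2 or less in all other samples. Il1f10 scored 42 in β cells at 1wk Dox replicate 5 and 5 or less elsewhere. Il13ra2, the IL-13 decoy receptor, scored 39 and 27 in ECs at 1wk WD replicates 3 and 4, which were also the EC samples of that group with the lowest Il31ra, and 10 or less elsewhere. In MΦs, Il2, the ligand of activated T cells, scored 122, 22, 320 and 71 at No Dox, 33 and 44 at 1wk Dox, then 30, 101, 40 and 107 at 1wk WD, against 4 or less in β cells and 1 in every EC sample. Il2 overlaps Adad1, and the counting is not stated to use strand.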
